A study of Mus musculus with 9 samples.

Results

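The comparison is between the cerebral cortex of mouse embryos that lack Cnot3 in the dorsal telencephalon (cKO) and the cortex of control embryos (Ctrl), at embryonic stage E12.5. Its members are the 3 embryos titled as Cnot3 cKO cortex and the 3 titled as Ctrl cortex, 6 of the 9 embryos of the series, and only these 6 entered the model. The cKO embryos carried floxed Cnot3 on both alleles and Emx1-Cre, and the Ctrl embryos are labelled wild type. The other 3 embryos of the series lacked Trp53 as well. Each library came from the dissected cortex of a single embryo, was made from poly(A) RNA with strand kept, and was read as paired ends on a NovaSeq. The study used these libraries to ask what follows, at the level of RNA, when this gene is lost.

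CCR4-NOT is the main cytoplasmic deadenylase of animal cells: it shortens the poly(A) tails of mRNAs, which are then decapped and degraded, and RNA-binding proteins and microRNA complexes bring it to their targets. Cnot3 belongs to the NOT module, the part of the complex that docks such adaptors and senses stalled ribosomes. In the early cortex, radial glia lining the ventricle divide to renew themselves and to make intermediate progenitors and the first neurons. Emx1-Cre acts in these radial glia and in the cells they give rise to, so vessels, blood, microglia, meninges and cells migrating in from ventral regions keep Cnot3. A bulk library pools all of these cells, and fewer cells of a class and less RNA per cell cannot be told apart. These libraries do not measure poly(A) tail length or RNA half-life.

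Reads assigned to genes came to 26455779, 21193798 and 28869816 in Ctrl embryos 1, 2 and 3 and to 25946075, 24835674 and 25218324 in cKO embryos 1, 2 and 3. Levels below are CPM, counts scaled to each library's total and TMM factor, always in that order of embryos, and fold changes are cKO over Ctrl on the log2 scale with their standard error, n = 3 per genotype. Cnot3 (ENSMUSG00000035632.17) stood at 119.3, 108 and 99.9 CPM in the Ctrl embryos and 14.9, 17.1 and 14.5 CPM in the cKO embryos. All 3 cKO embryos lay below all 3 Ctrl embryos, by a log2 fold change -2.82 ± 0.12, adjusted p = 3.1e-06. The remaining signal includes the cells outside the Cre lineage, and reads were not separated by exon. Trp53, which was not targeted in these 6 embryos, stood at 241, 256 and 219 CPM in the Ctrl embryos and 166, 163 and 166 CPM in the cKO embryos, also without overlap (log2 fold change -0.53 ± 0.08, adjusted p = 0.000693). By reads from Xist and Ddx3y, 1 Ctrl and 2 cKO embryos were male, so both sexes are in both groups. The library codes carry a number whose meaning the labels do not give. Ctrl embryo 1 shares it with cKO embryo 2, and Ctrl embryo 2 with cKO embryo 3, and a model with that number as a factor is called the code-number block below.

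Of 16183 genes tested, 3457 were called higher in cKO (21.4% of genes tested) and 3534 lower (21.8%) at an adjusted p below 0.05. Past a 2-fold change as well, 1343 were called higher (8.30%) and 960 lower (5.93%). All 3 cKO embryos lay above all 3 Ctrl embryos at 4422 genes (27.3% of genes tested) and below them at 4314 (26.7%). The counts of each list below are read against the 21.4% called higher and 21.8% called lower. The median log2 fold change over all genes tested was 0.02, the value against which the list medians below are read. Upper-quartile scaling moved that median up by 0.11, and correcting each embryo for GC content took it to -0.09. The share of calls that were higher in cKO was 49.5% with TMM, 60.5% with upper-quartile factors and 38.5% with the GC correction. A single model of all 9 embryos gave far fewer calls, 2 higher and 0 lower in edgeR (2119 and 1983 at an unadjusted p below 0.05) and 1344 and 971 in DESeq2.

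**Figure D1:**
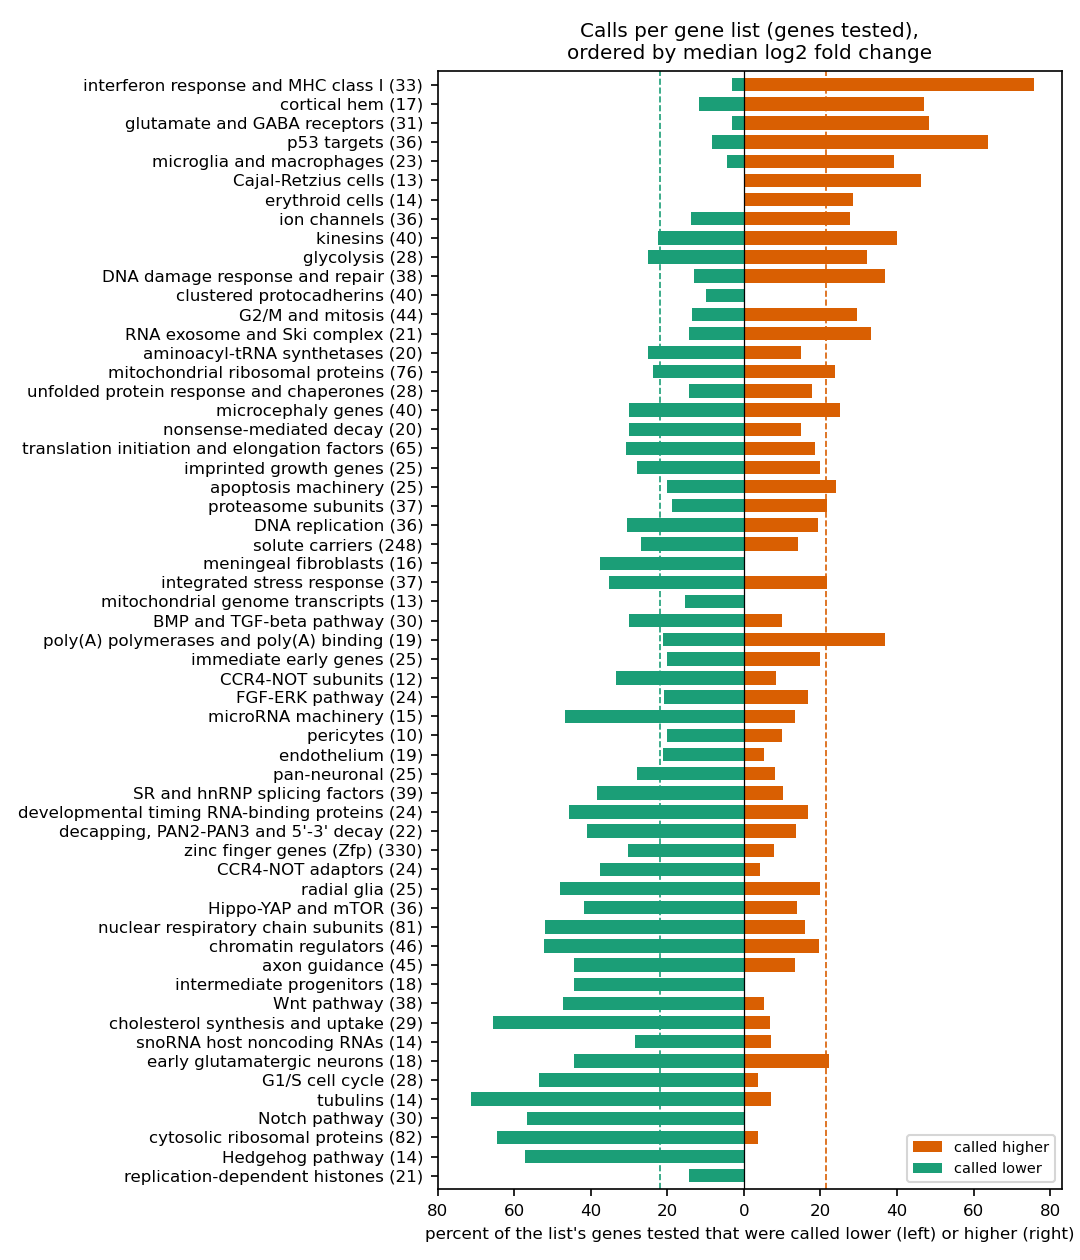
Bars give, for each gene list with at least 10 genes tested (number in brackets), the percent of those genes called lower (left) or higher (right) in cKO, ordered by median log2 fold change. Dashed lines mark the percent over all genes tested, 21.4% higher and 21.8% lower. The interferon list passes the line for higher only, and the cholesterol list the line for lower only.

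Base composition moved with genotype across the transcriptome. Over 15961 genes with a known transcript, the fold change correlated with GC content across genes at r = -0.27 and rho = -0.32, values given as a description because genes are not independent replicates. Genes in the GC-richest of 5 equal groups had median levels, relative to the Ctrl mean, of 0.18, 0.07 and -0.24 in the Ctrl embryos and -0.48, -0.31 and -0.54 in the cKO embryos. The cKO embryos were all lower there, and Ctrl embryo 3 stood closest to them. In that group 240 genes were called higher and 1363 lower, and in the GC-poorest group 989 higher and 296 lower. Of 5 equal groups by transcript length, that with the shortest transcripts had 380 called higher and 735 lower. The part of base composition in any single result was not tested, so results are named below where the GC correction ends or turns them.

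**Figure D2:**
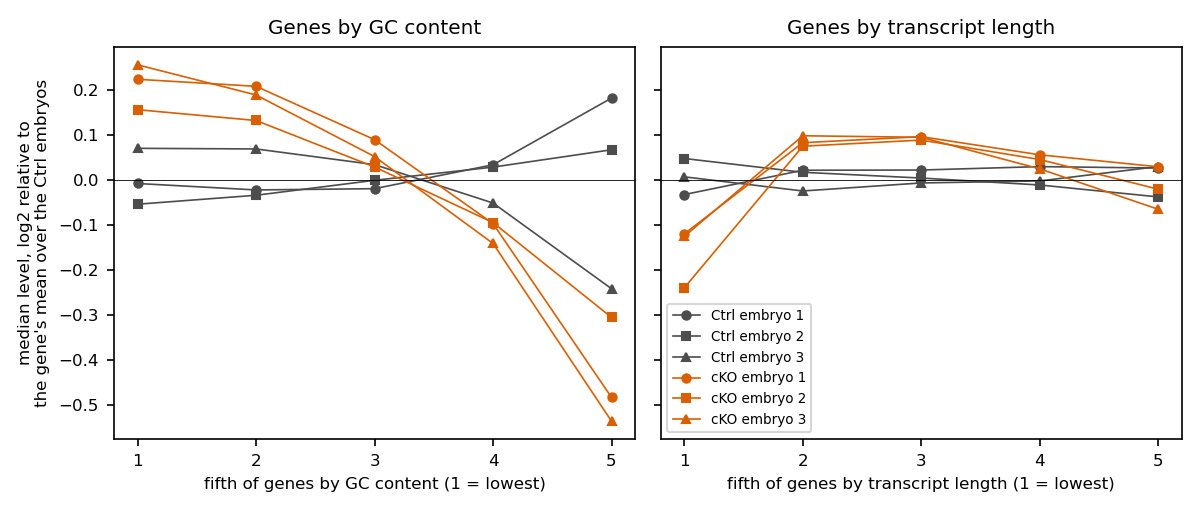
Each line is 1 embryo and gives the median level of genes in each of 5 equal groups by GC content (left) or by longest-transcript length (right), in log2 units relative to each gene's mean over the Ctrl embryos. The cKO lines lie lowest in the GC-richest group, where Ctrl embryo 3 lies nearest to them.

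Among lists with at least 10 genes tested, the highest medians belonged to genes of the interferon response and of antigen presentation by MHC class I, 1.46, and to the cortical hem, 1.42. Their order turned without Ctrl embryo 1 (1.30 and 1.51), without cKO embryo 1 (1.42 and 1.65) and with over 10 reads required in every embryo (1.23 and 1.44). Interferons act through their receptors to switch on antiviral genes, and many of the same genes load peptides onto MHC class I; neural progenitors normally keep this programme low. Of 40 genes on the list 33 were tested, 25 were called higher and 1 lower, 20 of them past 2-fold. The median level of these genes, relative to the Ctrl mean, was -0.14, 0.06 and 0.01 in the Ctrl embryos and 1.34, 1.92 and 1.11 in the cKO embryos. Their summed level was 275, 273 and 274 CPM in the Ctrl embryos and 499, 566 and 429 CPM in the cKO embryos, so the groups did not overlap by either measure. An exact 2-sided permutation test on the sum gave p = 0.1, the smallest that 3 embryos against 3 allow. Leaving out each embryo in turn left 21 to 27 genes called higher, and 18 of the 22 genes with over 10 reads in every embryo were.

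Genes with different tasks in this response rose. Ddx58, the RIG-I sensor of double-stranded RNA, stood at 2.74, 3.61 and 3.45 CPM in the Ctrl embryos and 16.2, 20.6 and 10.9 CPM in the cKO embryos (log2 fold change 2.28 ± 0.26, adjusted p = 0.000139). The transcription factor Irf7, which amplifies the response, stood at 0.207, 0.701 and 0.403 CPM in the Ctrl embryos and 3.81, 3.39 and 1.01 CPM in the cKO embryos (log2 fold change 2.66 ± 0.62, adjusted p = 0.00619). Usp18, a protease that removes the ubiquitin-like modifier ISG15 and damps the receptor, stood at 0, 0.301 and 0.477 CPM in the Ctrl embryos and 4.43, 3.36 and 2.36 CPM in the cKO embryos (log2 fold change 3.66 ± 0.71, adjusted p = 0.00232). In these 3 genes each cKO embryo exceeded each Ctrl embryo, and cKO embryo 3 was the lowest of its group. Among class I genes, the peptide transporter subunit Tap2 stood at 0.0829, 0.251 and 0.11 CPM in the Ctrl embryos and 1.41, 2.54 and 1.20 CPM in the cKO embryos (log2 fold change 3.54 ± 0.64, adjusted p = 0.00156). The heavy chain gene H2-K1 stood at 20.7, 18.2 and 15.6 CPM in the Ctrl embryos and 44.7, 50.6 and 47.0 CPM in the cKO embryos (log2 fold change 1.39 ± 0.13, adjusted p = 5.94e-05), although reads shared within the H2 family could have been split in counting. Nlrc5, the factor that drives class I genes, rose by 3.41 ± 0.55 and the light chain gene B2m by 1.23 ± 0.17. Adar, the editing enzyme that masks cellular double-stranded RNA, was the 1 member called lower, from 65.2, 59.0 and 58.2 CPM in the Ctrl embryos and 47.3, 48.2 and 48.8 CPM in the cKO embryos (log2 fold change -0.34 ± 0.10, adjusted p = 0.0157), a call that ended without Ctrl embryo 1 (-0.29) or cKO embryo 1 (-0.33) and with upper-quartile factors (-0.23). No interferon ligand was part of the list, and their levels were not examined.

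**Figure D3:**
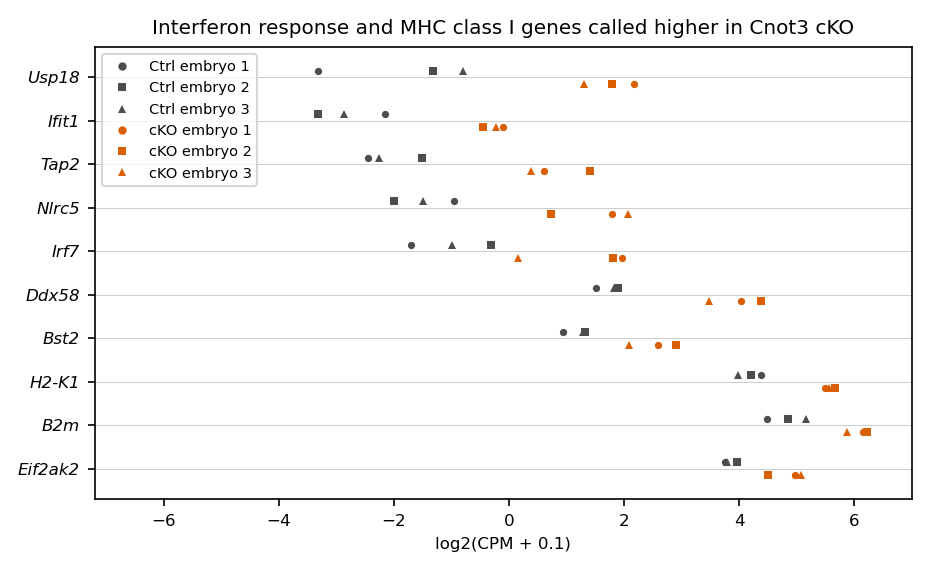
Each point is 1 embryo and gives the level of an interferon response or MHC class I gene as log2(CPM + 0.1), for the 10 genes of the list called higher in cKO that the text names. Points of the cKO embryos lie to the right of all Ctrl points for every gene drawn.

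Because these genes moved together, their promoters were searched for GAAANNGAA, part of the core of the interferon-stimulated response element, on both strands from 250 bases before to 50 bases after the start, in RefSeq sequence of build GRCm38.p6. Promoters were found for 27 of the 33 list genes tested, and 13 of these held the motif (48.1%), against 944 of 11180 genes tested (8.44%) and 2638 of 27025 genes in the whole promoter table (9.76%). The motif was present for 9 of 21 list genes called higher and for 4 of 6 that were not, so within the list it did not go with the call. Over all genes called higher 282 of 2675 held it (10.5%), and over genes called lower 179 of 2503 (7.15%). The 3 promoters printed here, chosen after the values were seen, belong to a sensor and to a pair of antiviral effectors that rose, and capitals mark the motif: Ddx58 at chr4:40239776-40240075 (- strand), Ifit1 at chr19:34640639-34640938 (+ strand) and Bst2 at chr8:71537423-71537722 (- strand).
Ddx58: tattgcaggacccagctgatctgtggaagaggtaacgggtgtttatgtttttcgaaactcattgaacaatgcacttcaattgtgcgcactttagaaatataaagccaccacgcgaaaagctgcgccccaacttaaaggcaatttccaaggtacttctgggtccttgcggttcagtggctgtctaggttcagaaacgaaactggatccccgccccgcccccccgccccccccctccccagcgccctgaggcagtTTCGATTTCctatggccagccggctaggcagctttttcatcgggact
Ifit1: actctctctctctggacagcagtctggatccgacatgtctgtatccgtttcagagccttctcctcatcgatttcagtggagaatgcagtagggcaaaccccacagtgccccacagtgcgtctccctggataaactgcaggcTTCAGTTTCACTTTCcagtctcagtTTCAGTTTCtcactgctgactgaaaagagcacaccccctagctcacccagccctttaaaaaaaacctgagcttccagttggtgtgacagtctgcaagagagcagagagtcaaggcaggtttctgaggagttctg
Bst2: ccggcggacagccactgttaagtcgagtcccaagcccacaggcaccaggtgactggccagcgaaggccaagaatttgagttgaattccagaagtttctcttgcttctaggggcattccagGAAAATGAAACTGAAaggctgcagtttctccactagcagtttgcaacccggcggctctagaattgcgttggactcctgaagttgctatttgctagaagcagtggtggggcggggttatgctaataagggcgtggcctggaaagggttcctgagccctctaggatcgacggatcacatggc

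Ifit1, which binds foreign RNA ends, stood at 0.124, 0 and 0.0367 CPM in the Ctrl embryos and 0.834, 0.627 and 0.75 CPM in the cKO embryos (log2 fold change 3.62 ± 0.85, adjusted p = 0.00641), and the code-number block ended that call. Bst2, which tethers budding virus, stood at 1.82, 2.41 and 2.35 CPM in the Ctrl embryos and 5.88, 7.34 and 4.12 CPM in the cKO embryos (log2 fold change 1.40 ± 0.30, adjusted p = 0.00375). Both were low genes in every Ctrl embryo, and neither group overlapped the other.

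Within the machinery of mRNA decay, other genes of the CCR4-NOT complex were called in both directions. Cnot3 aside, 11 subunits were tested, 1 was called higher and 3 lower (27.3%, against 21.8% over all genes tested), with a median of -0.09. The share called higher, 9.09%, was below the 21.4% over all genes tested. The counts became 3 and 2 (median 0.02) with upper-quartile factors and 1 and 6 (median -0.29) with the GC correction. Cnot2, the partner of Cnot3 in the NOT module, stood at 119.6, 111 and 128 CPM in the Ctrl embryos and 195, 190.1 and 193 CPM in the cKO embryos (log2 fold change 0.69 ± 0.08, adjusted p = 0.000158). The deadenylase subunit Cnot6 stood at 297, 291 and 307 CPM in the Ctrl embryos and 209, 188 and 205 CPM in the cKO embryos (log2 fold change -0.57 ± 0.08, adjusted p = 0.000347). The cKO and Ctrl values of both genes stood apart, in opposite directions. The study itself reported no significant CNOT2 change in cKO cortex at this stage, by RT-qPCR for RNA or western blot for protein. The scaffold Cnot1 (-0.20 ± 0.09, adjusted p = 0.113) and the deadenylases Cnot7 (-0.21 ± 0.08, 0.0592) and Cnot8 (0.16 ± 0.09, 0.179) were not called. With the GC correction Cnot1 (-0.47) and Cnot7 (-0.51) were called lower, and with upper-quartile factors Cnot8 was called higher (0.27). Cnot9 (-0.30 ± 0.08) and Tnks1bp1 (-0.61 ± 0.15) completed the calls, the first ending with upper-quartile factors and the second with the GC correction.

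The proteins that bring CCR4-NOT to its targets, and genes of decapping and 5'-to-3' decay, were mostly lower where they were called. Among 24 adaptors 1 was called higher and 9 lower (median -0.22, -0.38 with the GC correction), with 3 higher under upper-quartile factors and 2 in limma voom or with the code-number block. The lower ones included Tnrc6c, the microRNA adaptor (-1.04 ± 0.10), Samd4b, a reader of stem loops (-1.11 ± 0.15), Tob2 (-0.68 ± 0.13) and Zfp36l1, which binds AU-rich elements (-0.55 ± 0.10). The exception was Cpeb1, a regulator of cytoplasmic polyadenylation, at 0, 0 and 0.293 CPM in the Ctrl embryos and 1.81, 5.05 and 2.66 CPM in the cKO embryos (log2 fold change 4.81 ± 0.89, adjusted p = 0.00174). Of 22 genes of decapping and 5'-to-3' decay 3 were called higher and 9 lower (median -0.22, -0.41 with the GC correction and -0.24 to -0.14 as each embryo was left out), or 6 and 8 with upper-quartile factors and 5 higher with over 10 reads in every embryo. Ddx6, the helicase that links deadenylation to decapping, stood at 431, 428 and 435 CPM in the Ctrl embryos and 239.8, 240.5 and 250.3 CPM in the cKO embryos (log2 fold change -0.83 ± 0.07, adjusted p = 4.53e-05). The decapping enzyme gene Dcp2 stood at 152, 141 and 165 CPM in the Ctrl embryos and 85.4, 67.5 and 79.5 CPM in the cKO embryos (log2 fold change -0.98 ± 0.11, adjusted p = 0.000106). Values within each genotype were tight at Ddx6, and neither gene's groups overlapped. The 3 genes of the decapping and 5'-to-3' decay list called higher were Nudt16 (1.00 ± 0.21), Xrn1 (0.56 ± 0.11) and Xrn2 (0.51 ± 0.10). With the GC correction 2 were higher. The RNA exosome and Ski complex gave 7 higher and 3 lower of 21 (median 0.07), or 4 and 4 (median -0.02) with the GC correction. Its higher calls were 4 without Ctrl embryo 1, Ctrl embryo 2 or cKO embryo 3.

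MicroRNA machinery was also mostly lower where it was called. Of 15 genes 2 were called higher and 7 lower (median -0.18, -0.27 with the GC correction). Ago2, the slicing Argonaute, stood at 228, 208 and 241 CPM in the Ctrl embryos and 127, 115 and 119.9 CPM in the cKO embryos (log2 fold change -0.90 ± 0.09, adjusted p = 5.94e-05), and its paralog Ago1 fell by -0.90 ± 0.09. Limd1, a scaffold of the silencing complex, fell as well (-0.91 ± 0.08). Lin28a, which blocks maturation of let-7 microRNAs and is silenced as the neural tube matures, went the other way, at 0.124, 0.15 and 0.0367 CPM in the Ctrl embryos and 1.23, 1.99 and 0.937 CPM in the cKO embryos (log2 fold change 3.73 ± 0.69, adjusted p = 0.00175). In nonsense-mediated decay 3 genes were called higher and 6 lower of 20, against 21.4% and 21.8% over all genes tested. Upf1, the central helicase, fell by -1.03 ± 0.15 and Smg5, its partner, by -1.14 ± 0.10. The median of that list, 0.01, changed sign with the GC correction (-0.11), its lower calls were 3 with upper-quartile factors, and its higher calls were 1 without Ctrl embryo 2, cKO embryo 1 or cKO embryo 2.

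Targets of p53, the factor activated by DNA damage and ribosomal stress, were mostly called higher. Of 36 tested (of 38), 23 were called higher, 15 past 2-fold, and 3 lower, with a median of 0.90. Ephx1, an epoxide hydrolase, stood at 0.373, 0.401 and 0.55 CPM in the Ctrl embryos and 6.64, 7.67 and 3.94 CPM in the cKO embryos (log2 fold change 3.76 ± 0.38, adjusted p = 7.84e-05). Pmaip1, the BH3-only protein Noxa that opens the mitochondrial path of apoptosis, stood at 0.29, 0.752 and 0.367 CPM in the Ctrl embryos and 6.35, 6.78 and 3.04 CPM in the cKO embryos (log2 fold change 3.54 ± 0.47, adjusted p = 0.000303). The cKO embryos were above the Ctrl embryos at both genes, with cKO embryo 3 lowest of its group. The members called lower were Mdm2, the ligase that removes p53 (-0.42 ± 0.11), Pidd1 (-0.61 ± 0.21) and Btg2, an antiproliferative protein that binds CCR4-NOT (-0.37 ± 0.10). Without cKO embryo 1 only Mdm2 of these was still called (Pidd1 -0.52, Btg2 -0.34), and the call of Pidd1 also ended without Ctrl embryo 1 (-0.58), Ctrl embryo 2 (-0.47) or cKO embryo 3 (-0.67), in limma voom, and with upper-quartile factors or the GC correction. In the apoptosis list the initiator gene Casp8 (1.29 ± 0.18) and its substrate gene Bid (0.94 ± 0.17) rose, while the death genes Bok (-1.40 ± 0.19) and Hrk (-1.12 ± 0.27) and the survival gene Bcl2 (-1.04 ± 0.14) fell; 6 of 25 were called higher and 5 lower, close to the shares over all genes tested, or 8 lower with the GC correction.

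Markers of the labelled tissue were present throughout. In the radial glia list, all 25 genes were tested, 5 were called higher and 12 lower, with a median of -0.24; the higher calls were 3 without Ctrl embryo 2 and 2, with 16 lower and a median of -0.43, with the GC correction. Lhx2, which keeps cortical progenitors from other dorsal fates, stood at 868, 661 and 475 CPM in the Ctrl embryos and 274, 274 and 315 CPM in the cKO embryos (log2 fold change -1.22 ± 0.18, adjusted p = 0.000504). Hes5, a Notch target of dividing radial glia, stood at 38.4, 31.4 and 22.4 CPM in the Ctrl embryos and 6.71, 7.78 and 10.9 CPM in the cKO embryos (log2 fold change -1.86 ± 0.23, adjusted p = 0.000231). The factor Nfib fell by -0.93 ± 0.14, whereas Tnc, a matrix protein, and Ednrb, the endothelin receptor, rose by 2.42 ± 0.56 and 0.92 ± 0.14. No group overlap was seen at Lhx2 or Hes5, and Ctrl embryo 3 was the lowest control at both. The summed level of the radial glia list was 7589, 6858 and 6458 CPM in the Ctrl embryos and 6097, 6105 and 5532 CPM in the cKO embryos. It was led by Vim (24.5% of the sum), which was itself called higher (log2 fold change 0.42 ± 0.11, adjusted p = 0.0123).

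Intermediate progenitor genes were called in 1 direction. Of 18 genes 0 were called higher and 8 lower, with a median of -0.39; 1 was called higher without Ctrl embryo 3, with upper-quartile factors or with presence of Xist as a block, and 2, with a median of -0.21, with the GC correction. With the code-number block 13 were called lower, with a median of -0.59. Gadd45g, which follows commitment to the neuronal path, stood at 24.8, 12.48 and 6.01 CPM in the Ctrl embryos and 2.18, 2.54 and 2.47 CPM in the cKO embryos (log2 fold change -2.59 ± 0.44, adjusted p = 0.00111). Igsf8 fell by -1.85 ± 0.25 and the Notch-modifying enzyme gene Mfng by -1.19 ± 0.13. Ctrl embryo 3 was the lowest control at Gadd45g and still above each cKO embryo. Early glutamatergic neuron genes gave 4 higher and 8 lower of 18 (median -0.47, -0.29 with the GC correction). Fezf2, which specifies deep-layer neurons, fell from 113, 100.1 and 78.9 CPM in the Ctrl embryos and 48.3, 45.8 and 56.5 CPM in the cKO embryos (log2 fold change -0.96 ± 0.14, adjusted p = 0.000471). Cntn2, an axonal adhesion protein of the first neurons, fell by -1.02 ± 0.13, and Bcl11a, a factor of postmitotic neurons, by -0.64 ± 0.11. Ldb2 (1.32 ± 0.20), Mef2c (1.03 ± 0.24), Neurod6 (0.79 ± 0.24) and Slc17a6 (0.45 ± 0.15) rose. The higher calls of this list were 2 without Ctrl embryo 2, Ctrl embryo 3 or cKO embryo 1 and with the GC correction. Its summed level was 1555, 1366 and 1249 CPM in the Ctrl embryos and 1356, 1286 and 975.3 CPM in the cKO embryos, which overlapped (exact p = 0.4).

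Genes shared by all neurons were mostly lower where they were called. Their summed level was 3430, 3138 and 2814 CPM in the Ctrl embryos and 2508, 2490 and 1994 CPM in the cKO embryos, without overlap. It was led by Tubb3 (17.9%), which was called lower. Of 25 pan-neuronal genes 2 were called higher and 7 lower, against 21.4% and 21.8% over all genes tested. The list median was -0.20, -0.32 to -0.06 as each embryo was left out. With the GC correction 11 were lower (median -0.34), and with the code-number block 13 (median -0.35). Higher calls ranged from 1 to 4 as each embryo was left out, with 1 without any Ctrl embryo, cKO embryo 1 or cKO embryo 2 and 4 without cKO embryo 3. Syt1, the calcium sensor of synaptic vesicles, stood at 8.999, 12.3 and 10.05 CPM in the Ctrl embryos and 35.2, 31.7 and 38.9 CPM in the cKO embryos (log2 fold change 1.76 ± 0.16, adjusted p = 4.82e-05). Elavl3, an RNA-binding protein of young neurons, stood at 159.6, 118 and 105 CPM in the Ctrl embryos and 58.1, 69.5 and 53.8 CPM in the cKO embryos (log2 fold change -1.08 ± 0.15, adjusted p = 0.000454). The groups were apart at both genes, on opposite sides. Cajal-Retzius cells, early neurons of the cortical surface, had 6 of 13 genes called higher and 0 lower (median 0.39). The summed level of this list was 452.5, 389.1 and 407.9 CPM in the Ctrl embryos and 529.1, 553.9 and 415.5 CPM in the cKO embryos. These sums overlapped (exact p = 0.2), with cKO embryo 3 inside the Ctrl range, and were led by Tbr1 (35.8%). Leaving out Ctrl embryo 1, 2 or 3 gave 3, 2 and 2 genes called higher, leaving out cKO embryo 1 gave 3 and leaving out cKO embryo 2 gave 1. The code-number block gave 3, and presence of Xist as a block gave 2. Without cKO embryo 3, 1 gene was called lower. Cacna2d2, a calcium channel subunit on that list, rose by 1.08 ± 0.17 and kept its call whichever embryo was left out.

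The cortical hem is a medial signalling centre that secretes Wnt and Bmp ligands next to the choroid plexus. Its genes were mostly higher where they were called, and their levels varied between the cKO embryos. Of 17 genes 8 were called higher and 2 lower, all past 2-fold, with a median of 1.42; 5 were called higher with edgeR's robust option. Rspo3, a secreted amplifier of Wnt signals, stood at 14.6, 22.8 and 11.3 CPM in the Ctrl embryos and 33.8, 63.7 and 106 CPM in the cKO embryos (log2 fold change 2.07 ± 0.37, adjusted p = 0.00156). Lmx1a, a factor of the hem and roof, stood at 6.30, 6.96 and 2.75 CPM in the Ctrl embryos and 12.3, 20.3 and 31.8 CPM in the cKO embryos (log2 fold change 2.02 ± 0.39, adjusted p = 0.00222). Every cKO embryo was above every Ctrl embryo at both genes, and cKO embryo 1 was the lowest cKO embryo. Summed over the list, levels were 193, 236 and 144 CPM in the Ctrl embryos and 201, 441 and 573 CPM in the cKO embryos, where cKO embryo 1 fell inside the Ctrl range. The most abundant gene was Wnt8b (27.2% of the sum), which was not called. Bmp7 went the other way, at 23.2, 25.9 and 18.96 CPM in the Ctrl embryos and 6.49, 12.1 and 10.8 CPM in the cKO embryos (log2 fold change -1.21 ± 0.23, adjusted p = 0.00207). Lmx1b was the other gene called lower (-1.51 ± 0.56), and that call ended when any 1 embryo was left out (-1.77 to -1.06) and with upper-quartile factors, limma voom, the GC correction or any block, among others.

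Choroid plexus epithelium, which makes cerebrospinal fluid and lies beside the hem, held the largest single rise among named genes. Ttr, the thyroid hormone carrier of this epithelium, had 0, 0 and 0 CPM in the Ctrl embryos and 5.88, 10.8 and 32.6 CPM in the cKO embryos. With no read in the Ctrl group, and a floor of 3 counts over the group, this was at least 387-fold higher in cKO (adjusted p = 0.000294); its fitted fold change depends on the prior count and is not quoted. Clic6, a chloride channel protein, stood at 0.415, 0.551 and 0.293 CPM in the Ctrl embryos and 5.48, 6.93 and 15.1 CPM in the cKO embryos (log2 fold change 4.46 ± 0.47, adjusted p = 9.67e-05). Otx2, the factor that specifies the choroid plexus, stood at 1.12, 0.852 and 0.0367 CPM in the Ctrl embryos and 2.21, 9.92 and 13.3 CPM in the cKO embryos (log2 fold change 3.69 ± 0.80, adjusted p = 0.00435). In these 3 genes no cKO value fell in the Ctrl range, and cKO embryo 1 was the lowest of its group. Of 9 list genes tested (of 14), 5 were called higher and 0 lower. The list median depended on the filter, because genes near 0 in Ctrl entered through the cKO embryos: it was 3.22 over these genes, and 0.62, with 1 called higher, over the 3 genes with over 10 reads in every embryo. The summed level of the list was 17.5, 24.4 and 21.5 CPM in the Ctrl embryos and 40.3, 64.7 and 103 CPM in the cKO embryos, led by Enpp2 (24.6%), which was not called. Whether the dissections held more of this tissue, or its cells more of these RNAs, was not tested.

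**Figure D4:**
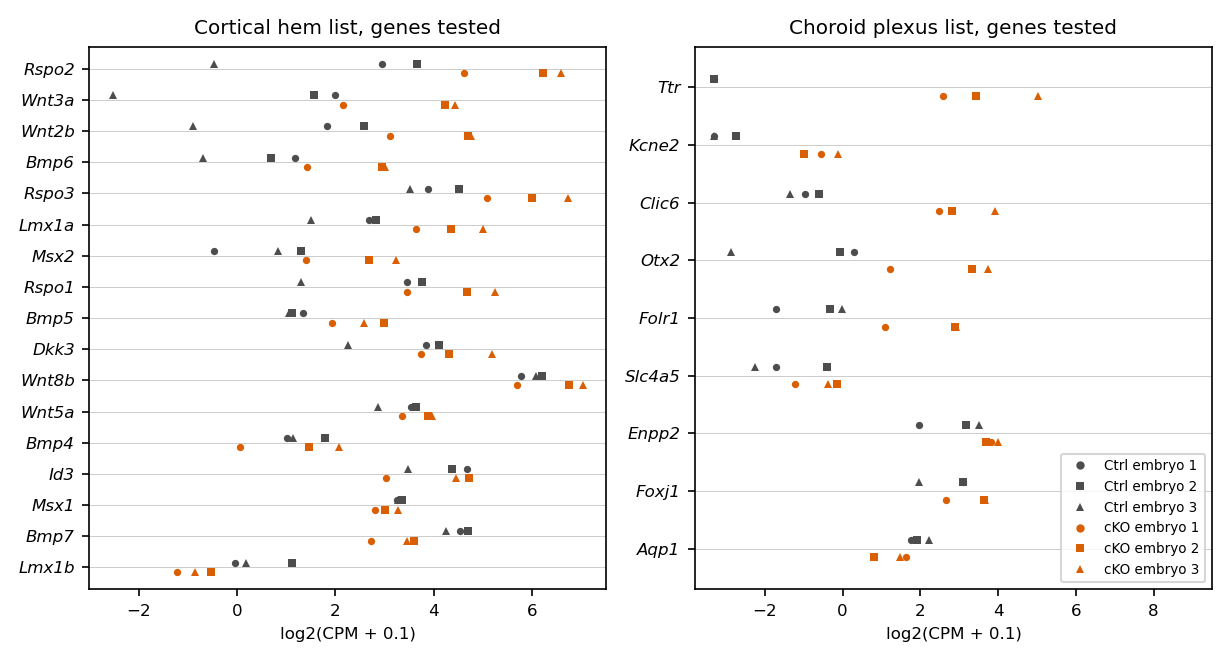
Each point is 1 embryo and gives the level of a gene as log2(CPM + 0.1), for the 17 cortical hem genes (left) and 9 choroid plexus genes (right) tested, ordered by fold change. Near the top of both panels all cKO points lie to the right of all Ctrl points.

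Dynlrb2, Ribc2, Gmnc and Enkur, picked for their fold change, have a role in motile cilia, which choroid plexus and ependymal cells carry. No list was set for such genes and no count was made, so nothing is said of them as a group. Dynlrb2, a dynein light chain, had 0, 0 and 0 CPM in the Ctrl embryos and 1.45, 2.88 and 3.19 CPM in the cKO embryos, at least 59.3-fold higher in cKO against the floor over the Ctrl group (adjusted p = 0.000302). Ribc2, a microtubule inner protein of the axoneme, had 0, 0 and 0.0734 CPM in the Ctrl embryos and 0.943, 2.40 and 2.92 CPM in the cKO embryos, a ratio of 74.1 with a 95% counting interval of 20.2 to 617 (adjusted p = 0.000633). Gmnc, which starts the multiciliated cell programme, stood at 0.912, 1.70 and 0.22 CPM in the Ctrl embryos and 6.17, 14.7 and 22.2 CPM in the cKO embryos (log2 fold change 3.97 ± 0.61, adjusted p = 0.00067). Enkur, an axonemal scaffold, rose by 3.95 ± 0.59. The rule that named these genes required groups apart, and cKO embryo 1 was the lowest cKO embryo at Dynlrb2 and Ribc2. Foxj1, the master factor of motile cilia, stood at 8.38, 8.47 and 3.78 CPM in the Ctrl embryos and 6.204, 12.3 and 12.6 CPM in the cKO embryos and was not called (log2 fold change 0.59 ± 0.35, adjusted p = 0.195), but with the GC correction (1.28) or with the filter of at least 1 read it was called higher. A pair of genes of transport within the cilium, for which no list was set, were among the smallest p-values. Ift81, a subunit of the transport train, stood at 32.6, 30.7 and 33.0 CPM in the Ctrl embryos and 91.5, 93.5 and 91.7 CPM in the cKO embryos (log2 fold change 1.52 ± 0.09, adjusted p = 2.44e-05). Dync2li1, a light chain of its motor, stood at 23.6, 25.4 and 25.4 CPM in the Ctrl embryos and 67.9, 68.8 and 80.3 CPM in the cKO embryos (log2 fold change 1.54 ± 0.11, adjusted p = 2.64e-05).

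Some markers of cells outside the Cre lineage also differed between the genotypes. In the list for microglia and macrophages, 9 of 23 genes were called higher and 1 lower (2 without cKO embryo 2), with a median of 0.55. Single embryos moved this list, to a median of 0.28 with 6 higher without cKO embryo 2 and of 0.81 with 12 higher without cKO embryo 3. Mrc1, a scavenger receptor of border macrophages and the most abundant gene of the list, stood at 9.04, 10.02 and 15.4 CPM in the Ctrl embryos and 37.7, 39.3 and 23.2 CPM in the cKO embryos (log2 fold change 1.54 ± 0.25, adjusted p = 0.000831). Every cKO embryo was above every Ctrl embryo at Mrc1, with cKO embryo 3 lowest of its group. The pan-leukocyte gene Ptprc rose by 1.71 ± 0.38, whereas Tmem119, which appears as microglia mature, fell by -1.48 ± 0.37 but was not called with the code-number block. The receptor genes Csf1r (0.52 ± 0.25, adjusted p = 0.113) and Cx3cr1 (0.45 ± 0.28, 0.231), carried by most of these cells, were not called, but Csf1r was called higher without cKO embryo 3 (0.77), with the GC correction (0.61) and with the filter of at least 1 read. Summed over the list, levels were 122, 138 and 138 CPM in the Ctrl embryos and 219, 269 and 144 CPM in the cKO embryos, and cKO embryo 3 was close to the Ctrl embryos. The tested genes all had reads in both groups, and the part of these cells in the interferon genes was not tested.

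A pair of genes of antigen-presenting and activated phagocytes, picked for their fold change, were among the largest rises. H2-Ab1, a chain of MHC class II, stood at 0.166, 0.451 and 0.403 CPM in the Ctrl embryos and 6.78, 9.48 and 5.96 CPM in the cKO embryos (log2 fold change 4.44 ± 0.40, adjusted p = 4.79e-05). Spp1, the secreted protein osteopontin, stood at 0.0415, 0.15 and 0.147 CPM in the Ctrl embryos and 4.10, 4.17 and 1.09 CPM in the cKO embryos (log2 fold change 4.74 ± 0.71, adjusted p = 0.00056). Krt8 and Krt18, the keratin pair of simple epithelia, rose too: Krt8 stood at 0.0829, 0.2 and 0.0367 CPM in the Ctrl embryos and 2.25, 5.86 and 3.56 CPM in the cKO embryos (log2 fold change 5.21 ± 0.63, adjusted p = 0.000184), and Krt18 at 0.29, 0.601 and 0.844 CPM in the Ctrl embryos and 8.02, 10.5 and 11.2 CPM in the cKO embryos (log2 fold change 4.08 ± 0.36, adjusted p = 4.63e-05). Each of these genes was below 1 CPM in every Ctrl embryo and higher in all 3 cKO embryos. In the list for surface epithelium that holds the keratins, 4 of 6 genes tested were called higher and 1 lower (median 2.19), with 12 in the table. Here too the filter mattered: of the 2 genes with over 10 reads in every embryo, 1 was called higher and 1 lower (median 0.64). The epidermal markers Krt5 and Krt14 had almost no reads, Krt15 had none, and the sum of the list was 56.7, 49.2 and 52.4 CPM in the Ctrl embryos and 50.1, 60.2 and 56.5 CPM in the cKO embryos, led by Tfap2c (78.1%), which fell by -0.51 ± 0.11.

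With TMM and all 6 embryos, endothelial, blood and meningeal lists had medians smaller in size than the list for microglia and macrophages. The summed level of the meningeal list nevertheless fell without overlap. Of 19 endothelial genes 1 was called higher and 4 lower, the latter close to the share over all genes tested. The median was -0.20, -0.34 to -0.04 as each embryo was left out and -0.12 with the GC correction. Mfsd2a, the lipid transporter of the blood-brain barrier, stood at 24.7, 28.1 and 26.2 CPM in the Ctrl embryos and 11.2, 7.01 and 11.1 CPM in the cKO embryos (log2 fold change -1.43 ± 0.19, adjusted p = 0.000326). The endoglin gene Eng fell by -0.87 ± 0.19; Plvap (-1.02 ± 0.18) and Sox18 (-0.69 ± 0.23) were called lower too, but not with the GC correction, and Sox18 was called without Ctrl embryo 2 but not without any other embryo (-0.73 to -0.60) or with the code-number block. Slc38a5, the gene called higher (1.43 ± 0.42), lost its call without Ctrl embryo 1 (1.31), Ctrl embryo 2 (1.28) or cKO embryo 2 (1.04), and with presence of Xist as a block. Erythroid genes gave 4 higher and 0 lower of 14 (median 0.36), against 21.4% and 21.8% over all genes tested. Their sums of 10480.0, 11730.0 and 7917 CPM in the Ctrl embryos and 14560.0, 9553 and 12920.0 CPM in the cKO embryos overlapped between groups and were led by Hbb-y. Without Ctrl embryo 1 or cKO embryo 3, 2 were called higher, and without Ctrl embryo 3, 2 were called lower. The code-number block gave 4 erythroid genes higher and 4 lower, and the median was 0.12 without cKO embryo 3. Meningeal fibroblast genes gave 0 higher and 6 lower of 16, with a median of -0.06. That median was -0.29 with the GC correction, -0.34 with replicate number as a block as well, and -0.14 without cKO embryo 2. It was 0.02 without Ctrl embryo 2 and 0.05 with upper-quartile factors. With the GC correction or the code-number block 1 gene was called higher. Col1a1, a fibrillar collagen chain, fell by -1.31 ± 0.30. The list summed to 1007, 1109 and 1053 CPM in the Ctrl embryos and 660.4, 869 and 634 CPM in the cKO embryos. These sums did not overlap and were led by Col3a1 (41.4%). Markers of diencephalon, midbrain and hindbrain were close to 0: 3 of 22 passed the filter and 1, Dbx1, was called higher (0.415, 0.351 and 0.22 CPM in the Ctrl embryos and 2.94, 2.29 and 1.35 CPM in the cKO embryos, log2 fold change 2.73 ± 0.52, adjusted p = 0.00209).

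Genes of entry into the cell cycle were called almost wholly on 1 side. Of 28 G1/S genes 1 was called higher and 15 lower, with a median of -0.52. E2f1, an activator of S-phase genes, stood at 58.7, 52.3 and 47.0 CPM in the Ctrl embryos and 23.8, 18.5 and 18.8 CPM in the cKO embryos (log2 fold change -1.37 ± 0.14, adjusted p = 7.72e-05). E2f2, its close relative, stood at 63.1, 62.9 and 58.7 CPM in the Ctrl embryos and 25.6, 23.8 and 26.9 CPM in the cKO embryos (log2 fold change -1.27 ± 0.10, adjusted p = 3.75e-05). The groups were clearly apart at both. The inhibitor gene Cdkn2c fell too (-1.39 ± 0.29). Tfdp2, the gene called higher (0.30 ± 0.09), was not called without Ctrl embryo 2 (0.30), Ctrl embryo 3 (0.24), cKO embryo 1 (0.28) or cKO embryo 3 (0.27) or with the GC correction (0.02) or the code-number block, and 4 genes were called higher with upper-quartile factors. The lists for later phases were split. DNA replication genes gave 7 higher and 11 lower of 36 (3 higher without Ctrl embryo 2, 4 without cKO embryo 3), with a median of -0.05 that was -0.12 to -0.02 as each embryo was left out and 0.06 with upper-quartile factors. With the GC correction they leaned low, with 2 higher, 16 lower and a median of -0.19.

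Mitotic genes depended on the correction for base composition. Of 44 genes of G2 and mitosis 13 were called higher and 6 lower (median 0.12, 0.05 to 0.15 as each embryo was left out), against 5 and 13 (median -0.06) with the GC correction and 3 lower with upper-quartile factors or presence of Xist as a block; without Ctrl embryo 2 the calls were 6 and 3, and 8 were higher without cKO embryo 1 or cKO embryo 3. Kif18a, a kinesin that aligns chromosomes, stood at 38.6, 33.9 and 41.4 CPM in the Ctrl embryos and 73.5, 78.1 and 80.2 CPM in the cKO embryos (log2 fold change 1.03 ± 0.11, adjusted p = 8.34e-05). Cenpa, the centromeric histone, stood at 140.2, 133 and 127 CPM in the Ctrl embryos and 91.0, 73.7 and 95.3 CPM in the cKO embryos (log2 fold change -0.62 ± 0.11, adjusted p = 0.0011). The groups of these genes were apart in opposite directions. Repair genes gave 14 higher and 5 lower of 38 (median 0.19, 0.10 to 0.25 as each embryo was left out), and 8 and 8 (median -0.05) with the GC correction. Within them Rad51b, a recombination paralog, rose by 1.27 ± 0.16 and Xrcc5, the Ku80 end-binding subunit, by 0.85 ± 0.12, while H2afx, the histone marked at breaks, fell by -1.27 ± 0.12. Among genes mutated in microcephaly, 10 were called higher and 12 lower of 40, against 21.4% and 21.8% over all genes tested. Their median of 0.02 (-0.04 to 0.05 as each embryo was left out) became -0.21, with 7 higher and 16 lower, with the GC correction. Cit, the citron kinase of cytokinesis, fell most on that list (-1.31 ± 0.13), and the nucleoporin Nup37 rose most (0.91 ± 0.11).

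Each signalling list reported here had more genes called lower than higher with TMM. Notch, which holds radial glia in the progenitor state, had 0 genes called higher and 17 lower of 30, with a median of -0.58 (-0.37 with the GC correction); 1 was called higher with upper-quartile factors or the GC correction. The receptor gene Notch1 stood at 249, 186 and 144 CPM in the Ctrl embryos and 58.7, 72.0 and 42.9 CPM in the cKO embryos (log2 fold change -1.74 ± 0.21, adjusted p = 0.000205). The target and repressor gene Hey2 stood at 17.4, 13.9 and 12.1 CPM in the Ctrl embryos and 4.46, 5.09 and 8.998 CPM in the cKO embryos (log2 fold change -1.23 ± 0.27, adjusted p = 0.00512). Nrarp, a feedback inhibitor, stood at 11.2, 3.66 and 0.77 CPM in the Ctrl embryos and 0.0726, 0.295 and 0.337 CPM in the cKO embryos (log2 fold change -4.44 ± 0.92, adjusted p = 0.00328), and limma voom did not call it. All Ctrl values exceeded all cKO values at these genes, although at Nrarp the Ctrl embryos themselves ranged widely. The ligand gene Dll1 fell by -0.94 ± 0.15 and Rbpj, the DNA-binding partner, was not called (0.05 ± 0.07, adjusted p = 0.615), though with the GC correction it was called lower (-0.25).

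Most Hedgehog genes tested were called lower. Of 14 tested 0 were called higher and 8 lower, with a median of -0.81; Shh itself had no reads in the 6 embryos, and the gene Ptch1 alone was called higher without cKO embryo 2 (0.77), in DESeq2 (0.64), with upper-quartile factors (0.75), with either other filter on low counts and with the code-number block. Boc, a coreceptor for the ligand, stood at 118.9, 102 and 84.9 CPM in the Ctrl embryos and 36.6, 37.7 and 36.9 CPM in the cKO embryos (log2 fold change -1.46 ± 0.12, adjusted p = 4.26e-05). Smo, the signal transducer of the pathway, stood at 274, 275 and 235 CPM in the Ctrl embryos and 112, 114 and 143 CPM in the cKO embryos (log2 fold change -1.09 ± 0.11, adjusted p = 8.74e-05). Gli2, the main transcriptional activator, stood at 102, 88.9 and 73.5 CPM in the Ctrl embryos and 39.3, 34.6 and 40.3 CPM in the cKO embryos (log2 fold change -1.21 ± 0.13, adjusted p = 9.97e-05). The cKO embryos formed a tight low group at Boc and Gli2. Coreceptors Cdon and Gas1 fell by -1.11 ± 0.17 and -0.98 ± 0.09, and the target gene Gli1 (-0.71 ± 0.64, adjusted p = 0.398) and the receptor and target gene Ptch1 (0.64 ± 0.24, 0.0551) were not called.

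In the Wnt pathway 2 genes were called higher and 18 lower of 38 (median -0.44). Lrp5, a coreceptor, stood at 87.9, 77.2 and 58.8 CPM in the Ctrl embryos and 32.3, 31.6 and 26.6 CPM in the cKO embryos (log2 fold change -1.31 ± 0.15, adjusted p = 0.000152). Fzd9, a frizzled receptor, stood at 44.2, 27.3 and 21.6 CPM in the Ctrl embryos and 3.56, 2.84 and 7.198 CPM in the cKO embryos (log2 fold change -2.78 ± 0.36, adjusted p = 0.000276). The controls varied at both genes but stayed above the cKO embryos. The 2 genes called higher were Wls, needed to secrete Wnt ligands (0.89 ± 0.18), and Fzd6 (0.74 ± 0.13). In the list for Hippo and mTOR signalling, 5 were called higher and 15 lower of 36 (median -0.25), or 7 and 11 with upper-quartile factors and 4 and 21 with the GC correction. Akt1, the growth kinase, stood at 446, 402 and 290.3 CPM in the Ctrl embryos and 113, 145 and 118.997 CPM in the cKO embryos (log2 fold change -1.59 ± 0.15, adjusted p = 6.31e-05). Eif4ebp2, the translation brake of the mTOR path in neurons, stood at 546, 548 and 600.0 CPM in the Ctrl embryos and 250.3, 209.9 and 239.6 CPM in the cKO embryos (log2 fold change -1.28 ± 0.09, adjusted p = 2.64e-05). Deptor, an mTOR inhibitor, was higher instead (3.08 ± 0.76), as was the YAP target Ccn2 (1.76 ± 0.31). The FGF-ERK list gave 4 higher and 5 lower of 24, close to the shares over all genes tested. Leaving out each embryo gave 1 to 4 higher and 3 to 4 lower, the GC correction 2 and 8, and upper-quartile factors 5 and 3; the median was -0.18, -0.30 to 0.04 as each embryo was left out. Its gene Fgfr3, a receptor of caudal cortex, fell by -1.47 ± 0.25. The BMP and TGF-beta list gave 3 and 9 of 30 (median -0.13, -0.40 with the GC correction and -0.23 to -0.09 as each embryo was left out; 6 and 7 with upper-quartile factors, 2 and 13 with the GC correction, 6 lower without Ctrl embryo 2 or cKO embryo 1), and the activin receptor gene Acvr2b fell by -1.92 ± 0.18.

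Most genes of cytosolic ribosomal proteins were called lower. Of 82 tested 3 were called higher and 53 lower, 20 past 2-fold, with a median of -0.59; 1 was called higher without Ctrl embryo 2 or with the GC correction. Their summed level was 65510.0, 68040.0 and 64790.0 CPM in the Ctrl embryos and 46360.0, 43460.0 and 48320.0 CPM in the cKO embryos, so the groups did not overlap. Rps29, a small-subunit protein, stood at 548, 459 and 284 CPM in the Ctrl embryos and 107, 132 and 115 CPM in the cKO embryos (log2 fold change -1.87 ± 0.20, adjusted p = 0.000101). Rplp1, of the stalk that recruits elongation factors, stood at 911, 548 and 253 CPM in the Ctrl embryos and 67.7, 106 and 76.1 CPM in the cKO embryos (log2 fold change -2.77 ± 0.38, adjusted p = 0.000346). Both sets of Ctrl values spread widely, with Ctrl embryo 3 nearest the cKO embryos. These genes are short and have many processed copies in the genome, and reads shared with such copies could have been split in counting. Processed pseudogenes as a class had 11 called higher and 269 lower of 1108 tested, with a median of -0.41. Mitochondrial ribosomal proteins had 18 called higher and 18 lower of 76 (11 lower without cKO embryo 1), close to the shares over all genes tested, with a median of 0.04 that turned to -0.16, with 13 higher and 26 lower, with the GC correction.

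Initiation and elongation factors moved both ways. Eif4a2, the helicase form that binds CCR4-NOT in microRNA silencing, stood at 104, 92.4 and 100.2 CPM in the Ctrl embryos and 254, 331 and 284 CPM in the cKO embryos (log2 fold change 1.55 ± 0.11, adjusted p = 2.64e-05). Eif5a, which resolves ribosomes stalled on difficult peptides, stood at 1304, 1264 and 1261 CPM in the Ctrl embryos and 596, 588 and 604 CPM in the cKO embryos (log2 fold change -1.10 ± 0.07, adjusted p = 2.64e-05). Eef2, the translocase, stood at 3840.3, 3291 and 2513 CPM in the Ctrl embryos and 1196, 1493 and 1246 CPM in the cKO embryos (log2 fold change -1.29 ± 0.15, adjusted p = 0.000148). At these genes the values of each genotype stood apart. Over the list 12 were called higher and 20 lower of 65, against 21.4% and 21.8% over all genes tested. The higher calls were 7 without Ctrl embryo 2 and 6 with the GC correction. The list median was 0.00 with TMM, 0.11 with upper-quartile factors and -0.22, with 29 lower, with the GC correction. Eif2ak2, the PKR kinase that stops initiation in response to double-stranded RNA, rose by 1.03 ± 0.17, and Eif2ak4, its amino acid sensing relative, by 0.76 ± 0.12. In the integrated stress response list 8 were called higher and 13 lower of 37, the former close to the share over all genes tested. The list median was -0.09, -0.20 to -0.04 as each embryo was left out and 0.02 with upper-quartile factors. Past 2-fold, 5 were higher and 1 lower. The target gene Ddit4, an mTOR inhibitor, rose by 1.12 ± 0.14. The central factor Atf4 fell from 145, 132 and 141 CPM in the Ctrl embryos and 81.1, 84.0 and 79.9 CPM in the cKO embryos (log2 fold change -0.77 ± 0.08, adjusted p = 8.71e-05), as did the target genes Phgdh (-0.87 ± 0.10) and Slc7a5 (-0.92 ± 0.10).

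Nuclear genes of the respiratory chain gave 13 higher and 42 lower of 81, with a median of -0.28. Uqcr11, a small subunit of complex III, stood at 74.3, 59.5 and 32.5 CPM in the Ctrl embryos and 10.9, 16.7 and 9.45 CPM in the cKO embryos (log2 fold change -2.16 ± 0.30, adjusted p = 0.000362). Atp5d, of the ATP synthase rotor, fell by -1.45 ± 0.18, while the subunit variant Cox6b2, best known from testis, rose by 1.60 ± 0.27. All Ctrl embryos exceeded the cKO embryos at Uqcr11. Glycolytic genes gave 9 higher and 7 lower of 28, against 21.4% higher and 21.8% lower over all genes tested. Bnip3, a mitophagy receptor induced by low oxygen, stood at 21.1, 19.6 and 23.3 CPM in the Ctrl embryos and 64.3, 89.3 and 91.3 CPM in the cKO embryos (log2 fold change 1.93 ± 0.15, adjusted p = 3.4e-05). Aldoc, an aldolase of radial glia, stood at 223, 181 and 115 CPM in the Ctrl embryos and 75.1, 51.4 and 40.9 CPM in the cKO embryos (log2 fold change -1.63 ± 0.25, adjusted p = 0.000675). The platelet phosphofructokinase gene Pfkp rose by 1.77 ± 0.24, and Pkm, the pyruvate kinase gene, fell by -0.81 ± 0.08. Pgm1, which links glycogen to glycolysis, was among the genes of smallest p-value, at 33.6, 35.6 and 34.3 CPM in the Ctrl embryos and 139.9, 174 and 115.8 CPM in the cKO embryos (log2 fold change 2.06 ± 0.14, adjusted p = 2.64e-05).

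Synthesis and uptake of cholesterol, which growing cells need for membranes and for Hedgehog signalling, was called lower across the path. Of 29 genes 2 were called higher and 19 lower, 7 past 2-fold, with a median of -0.44; with the GC correction the counts were 0 and 21. Srebf2, the transcription factor that drives the path, stood at 414, 327 and 256 CPM in the Ctrl embryos and 123, 129 and 115 CPM in the cKO embryos (log2 fold change -1.44 ± 0.15, adjusted p = 8.64e-05). Every cKO embryo was below every Ctrl embryo at this gene. Scap, which escorts Srebf2 protein, fell by -1.09 ± 0.16, and Abca1, the exporter, and Insig2, a retention factor, were the genes called higher (0.71 ± 0.25 and 0.44 ± 0.12). Without Ctrl embryo 1 (0.54), Ctrl embryo 2 (0.75), cKO embryo 1 (0.69) or cKO embryo 2 (0.43) the Abca1 call ended, and neither gene was called with the GC correction; Insig2 was not called with the code-number block.

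Receptors for glutamate and GABA, which appear as neurons mature, were mostly higher where they were called, from low levels. Of 31 tested (of 34) 15 were called higher, 10 past 2-fold, and 1 lower, with a median of 0.99. The median level relative to the Ctrl mean was -0.00, 0.00 and -0.01 in the Ctrl embryos and 1.06, 0.98 and 0.87 in the cKO embryos, without overlap. The summed level was 283, 252 and 217 CPM in the Ctrl embryos and 297, 303 and 264 CPM in the cKO embryos, which overlapped (exact p = 0.2), and was led by Grik5 (21.3%). Grik3, a kainate receptor subunit, stood at 1.24, 0.701 and 0.88 CPM in the Ctrl embryos and 8.71, 11.8 and 3.30 CPM in the cKO embryos (log2 fold change 3.06 ± 0.47, adjusted p = 0.000625). Gria3, an AMPA receptor subunit, stood at 2.78, 4.01 and 1.61 CPM in the Ctrl embryos and 11.9, 11.4 and 6.67 CPM in the cKO embryos (log2 fold change 1.85 ± 0.35, adjusted p = 0.00201). Both were higher in all 3 cKO embryos than in any Ctrl embryo. The exception was Grik5, a kainate subunit of higher level, which fell by -1.38 ± 0.24. Ion channel genes gave 10 higher and 5 lower of 36 (median 0.26, 0.15 to 0.36 as each embryo was left out, 0.10 with the GC correction and 0.06 with the code-number block; 3 lower without Ctrl embryo 2 or cKO embryo 1), with Trpm3, a cation channel of choroid plexus and progenitors, at 0.29, 0.2 and 1.10 CPM in the Ctrl embryos and 4.54, 4.28 and 9.90 CPM in the cKO embryos (log2 fold change 3.49 ± 0.58, adjusted p = 0.00105).

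Genes that build and steer axons were on the other side. Of 45 axon guidance genes 6 were called higher and 20 lower, 10 past 2-fold, with a median of -0.38 (-0.64 with the code-number block and -0.58 to -0.29 as each embryo was left out). Robo3, which lets commissural axons cross the midline, stood at 28.3, 23.9 and 19.04 CPM in the Ctrl embryos and 4.90, 6.75 and 5.25 CPM in the cKO embryos (log2 fold change -2.07 ± 0.20, adjusted p = 6.77e-05). Ephb2, an ephrin receptor, stood at 300.0, 261 and 229 CPM in the Ctrl embryos and 66.8, 78.0 and 81.2 CPM in the cKO embryos (log2 fold change -1.80 ± 0.12, adjusted p = 2.64e-05). Plxna1, a semaphorin receptor, fell by -1.37 ± 0.14. The netrin receptor gene Unc5c (1.37 ± 0.22) and the ligand gene Sema3c (1.12 ± 0.20) rose. No value of Robo3 or Ephb2 crossed between the groups. Tubulins gave 1 higher and 10 lower of 14 (median -0.53; 0 higher with the code-number block); Tubb2b, abundant in young neurons, stood at 2483, 2183 and 1723 CPM in the Ctrl embryos and 989, 1102 and 873 CPM in the cKO embryos (log2 fold change -1.11 ± 0.14, adjusted p = 0.000205), with reads of near-identical paralogs possibly split. Kinesins gave 16 higher and 9 lower of 40 (median 0.20), a lean that ended with the GC correction (11 and 11, median 0.07). Kif17 (3.00 ± 0.55), Kif6 (1.81 ± 0.32) and Kif27 (1.27 ± 0.26) rose, while Kif1a (-0.84 ± 0.09) and Kif21b (-1.21 ± 0.15) fell.

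Regulators in the nucleus leaned low. Of 46 chromatin regulators 9 were called higher and 24 lower (median -0.29, -0.44 with the GC correction); the higher calls were 4, 3 and 4 without Ctrl embryo 1, Ctrl embryo 2 and cKO embryo 1, and 4 with the GC correction. Tet3, an oxidase of methylated DNA, stood at 199.9, 166 and 153 CPM in the Ctrl embryos and 68.5, 70.6 and 61.6 CPM in the cKO embryos (log2 fold change -1.37 ± 0.11, adjusted p = 3.75e-05). Kmt2d, a methyltransferase of enhancers, stood at 75.4, 61.5 and 64.8 CPM in the Ctrl embryos and 25.0, 19.7 and 16.5 CPM in the cKO embryos (log2 fold change -1.72 ± 0.16, adjusted p = 5.11e-05). Both were below every Ctrl embryo in all cKO embryos. Kmt5a, which places a methyl mark on histone H4 in mitosis, fell by -1.26 ± 0.08. Of 330 zinc finger genes tested, 26 were called higher (17 without Ctrl embryo 2 or cKO embryo 1) and 100 lower (median -0.22), or 149 lower (median -0.34) with the GC correction. Splicing factors of the SR and hnRNP families gave 4 higher and 15 lower of 39 (median -0.21), and 27 lower (median -0.47) with the GC correction. Ptbp1, the splicing repressor of progenitors, fell by -0.88 ± 0.12, and its neuronal relative Ptbp2 by -0.57 ± 0.10.

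RNA-binding proteins that time cortical development gave 4 higher and 11 lower of 24 (median -0.21, -0.35 with the GC correction); 7 were lower without Ctrl embryo 1 or with upper-quartile factors. Msi2, a Musashi protein of progenitors, stood at 208, 197 and 199 CPM in the Ctrl embryos and 107, 107 and 114 CPM in the cKO embryos (log2 fold change -0.88 ± 0.08, adjusted p = 4.33e-05). Hmga1, a chromatin protein of the young cortex placed on this list, stood at 497, 361 and 274 CPM in the Ctrl embryos and 115.5, 151 and 126 CPM in the cKO embryos (log2 fold change -1.53 ± 0.19, adjusted p = 0.000211). The groups did not overlap at either gene, and the Ctrl embryos differed more among themselves at Hmga1. Fxr1, a relative of the fragile X protein, rose by 0.76 ± 0.09, and the m6A writer gene Mettl3 by 0.63 ± 0.12.

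A few genes outside these lists separated the genotypes with the smallest p-values. Rec8, a meiotic cohesin subunit that somatic cells normally keep off, stood at 6.01, 6.11 and 4.88 CPM in the Ctrl embryos and 35.4, 35.0 and 32.2 CPM in the cKO embryos (log2 fold change 2.60 ± 0.15, adjusted p = 2.44e-05). Ntrk2, the receptor for the growth factor BDNF, stood at 77.5, 84.1 and 78.0 CPM in the Ctrl embryos and 188, 194 and 197 CPM in the cKO embryos (log2 fold change 1.27 ± 0.08, adjusted p = 2.44e-05). Chst2, a sulfotransferase of cell-surface sugars, stood at 103, 95.8 and 89.4 CPM in the Ctrl embryos and 23.1, 20.9 and 27.9 CPM in the cKO embryos (log2 fold change -2.001 ± 0.12, adjusted p = 2.44e-05). Each showed embryos of a genotype close together and far from the other genotype. Ano3, a membrane scramblase of the anoctamin family, stood at 0.415, 0.451 and 0.77 CPM in the Ctrl embryos and 11.4, 15.4 and 10.3 CPM in the cKO embryos (log2 fold change 4.47 ± 0.32, adjusted p = 2.64e-05). Dglucy, a mitochondrial D-glutamate enzyme, stood at 3.86, 3.21 and 1.65 CPM in the Ctrl embryos and 38.3, 45.8 and 31.7 CPM in the cKO embryos (log2 fold change 3.74 ± 0.28, adjusted p = 3.22e-05). Ddit4l, an inhibitor of mTOR signalling, rose by 2.66 ± 0.19, and Prelid2, of the lipid transfer protein family of mitochondria, by 2.92 ± 0.20. Anp32e, a chaperone that removes the histone variant H2A.Z, fell by -1.21 ± 0.08, and Gnai2, an inhibitory G protein subunit, by -1.25 ± 0.08.

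Among the largest falls, several had wide spread within the Ctrl group. Cox16, an assembly factor of complex IV, stood at 5.52, 3.06 and 0.587 CPM in the Ctrl embryos and 0.0726, 0.258 and 0.0375 CPM in the cKO embryos (log2 fold change -4.58 ± 0.91, adjusted p = 0.00263). Zfp428, a zinc finger gene, stood at 20.2, 10.3 and 4.11 CPM in the Ctrl embryos and 1.78, 1.33 and 1.35 CPM in the cKO embryos (log2 fold change -2.95 ± 0.50, adjusted p = 0.00111). Insyn1, a protein of inhibitory synapses, stood at 40.2, 30.5 and 17.6 CPM in the Ctrl embryos and 4.90, 4.46 and 5.29 CPM in the cKO embryos (log2 fold change -2.59 ± 0.27, adjusted p = 9.61e-05). At all 3, Ctrl embryo 1 was highest and Ctrl embryo 3 lowest of the controls; genes whose groups overlap were not eligible for this set. Elfn1, a synaptic adhesion protein, fell by -2.87 ± 0.52, and Hic1, a transcriptional repressor, by -2.67 ± 0.48. Slc39a2, a zinc importer, had 0.498, 0.501 and 0.624 CPM in the Ctrl embryos and 0, 0 and 0 CPM in the cKO embryos, and with no read in the cKO group it was at least 14.8-fold lower against the floor of 3 counts over that group (adjusted p = 0.00295).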

How the data were processed

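The deposited table holds read counts per gene, made by the authors with FastQC, Cutadapt, STAR alignment to mm39 and featureCounts; no value of their own tests was used. Genes were kept by filterByExpr with genotype as the group and tested for cKO against Ctrl in the 6 embryos with edgeR's quasi-likelihood F test (edgeR 4.0.16, TMM factors, R 4.3.3). A gene was called at a Benjamini-Hochberg adjusted p below 0.05 over all genes tested, and the stricter call also needed a log2 fold change beyond 1. Standard errors are the absolute log2 fold change over the square root of F. The alternatives, tests and naming rule were written down before the files were opened here, but the members and the gene lists were chosen with earlier results of these data known. DESeq2 on all 9 embryos, the promoter search and its motif, the count for CCR4-NOT without Cnot3 and the names listed below came after seeing the data.

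Named genes are Cnot3, Trp53, the 15 largest rises and 15 largest falls among called genes whose groups did not overlap (mean CPM at least 1), the 10 smallest p-values in each direction, up to 4 called genes each way per list, and defining markers. Genes named by the study, gene models without a standard name and pseudogenes were left out of the largest and smallest-p sets, and some genes picked by these rules are not reported here. Other names were chosen after their values were seen: Ddx58, Irf7, H2-K1, Nlrc5, B2m, Bst2, Gas1, Gli1, Ptch1, Rbpj, Rspo3, Lmx1a, Foxj1, Cnot1, Cnot7, Cnot8, Csf1r and Cx3cr1. Symbols, transcript length and GC content of the longest transcript came from GENCODE M21 on GRCm38, matched for 52081 of 57010 genes, and no gene coordinates beyond the printed promoters are given because the builds differ. The GC correction subtracted, per embryo, a loess of log2 CPM on GC content (span 0.5) as offsets. Levels relative to the Ctrl mean used log2(CPM + 0.1). The promoter motif was shortened by 1 base after a search with the longer form had been seen. Counting intervals and floors cover counting error only.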

Additional observations from a re-analysis of the deposited data

How the results depend on the processing

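The counts of genes called higher, lower, over 2-fold higher and over 2-fold lower stayed within 1.5 times their values under RLE and upper-quartile factors, DESeq2, limma voom, edgeR's robust option, both other filters on low counts, the blocks, the GC offsets and protein-coding genes alone. With the replicate block they were 3308, 3590, 1220 and 923. Leaving out each embryo gave 2480 to 3168, 2806 to 3489, 1127 to 1277 and 728 to 1184, and a Cnot3 log2 fold change of -2.92 to -2.75.

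The model of all 9 embryos gave 2, 0, 2 and 0 in edgeR, with 2119 higher and 1983 lower at an unadjusted p below 0.05, and 1344, 971, 836 and 562 in DESeq2; the cause was not tested. In that edgeR model Cnot3 had a log2 fold change of -2.85 and an adjusted p of 0.0602, against a range of 2.13e-101 to 0.000166 over its other alternatives. Rbpj, not called with TMM, was called lower with GC offsets, without a block (-0.25) and with the replicate block (-0.25); the cause was not tested.

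Correlations across genes between Ctrl and cKO embryos were -0.14, -0.01 and 0.02 for the same replicate number, and 0.13 and -0.0034 for the embryos that share a code number. The embryos were not treated as pairs, and both numbers were tried as blocks. With 3 embryos per genotype, depth limits genes of a few counts, whose fold changes have wide errors, and a filter of over 10 reads in every embryo leaves many of the low genes named here untested.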
